A study of Oryctolagus cuniculus with 15 samples.

Results

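NEGR1, ASTN1, RAB26, UNC13D and ISG20 are 5 of the 23428 genes counted by RNA-seq in rabbit corneal keratocytes. They were selected on their measured values, because their levels differed between collagen matrices seeded with 100000 (3DF) and 50000 (3DF_50) cells per matrix. NEGR1 and ASTN1 were chosen for higher levels at the higher density, and RAB26, UNC13D and ISG20 for lower levels there. Their difference between these densities is therefore a description with no test, and the same holds for every pair of conditions that uses the 3D libraries. Tests of these 5 genes were made only among the 2D conditions, whose libraries had no part in the choice.

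All libraries came from first-passage primary keratocytes of New Zealand white rabbits, the resident cells of the corneal stroma. The cells of each condition were held for 6 days in serum-free medium. In 2DC the cells grew on dishes coated with type I collagen and were treated with digestion medium before lysis, and in 2DC_L the coated dishes were lysed directly, with no digestion. In 2DF the cells were plated on top of fibrillar collagen matrices, and in 3DF and 3DF_50 they were embedded within such matrices, and these 3 conditions were released with digestion medium. Each condition had 3 libraries, described by the study as separate experiments, each made from RNA of pooled dishes or matrices. Between 14626982 and 31804255 reads were counted per library, with a median of 20890681 in 3DF and 14975261 in 3DF_50. No library was left out, although the counts of 3DF replicate 1 differed more from the other 3DF libraries (chi-square per gene of 76.5 and 89.5) than any other pair of one condition did (17.1 to 56.6). Library names carry prefixes that some conditions share, and their meaning is not given in the labels. The keratocyte markers KERA, LUM, DCN, OGN, ALDH1A1, TKT, AQP1 and CD34 were above 0 in every library. Their summed level was 21763 to 24962 FPKM in 3DF_50 and 29279 to 43578 FPKM in 3DF. LUM, DCN, OGN and KERA carried most of this sum, whereas AQP1 (616 FPKM in 3DF and 1369 FPKM in 3DF_50 on average) and ALDH1A1 (688 and 873 FPKM) had lower levels in 3DF.

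The 5 genes come from unrelated families, and most of what is known of them comes from other tissues. NEGR1 is a member of the IgLON family, small immunoglobulin-domain proteins held on the cell surface by a lipid anchor that take part in cell adhesion, and ASTN1, astrotactin, is a membrane protein known from the migration of young neurons along glial fibres. RAB26 and UNC13D (Munc13-4) work in regulated exocytosis, RAB26 as a small GTPase of secretory granules and UNC13D as the factor that primes lytic granules and other secretory lysosomes for fusion. ISG20 is a 3′ to 5′ exonuclease that degrades RNA and is induced by interferon.

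The 5 genes were low to moderate in level. NEGR1, at chr13:93665883-94608231 on the plus strand of oryCun2, had 3.53, 3.28 and 2.91 FPKM (a level scaled by gene length and library size) in the 3DF libraries and 0.667, 0.744 and 0.825 FPKM in the 3DF_50 libraries. The libraries of both densities were tight and did not overlap. Its levels were 6.10, 11.4 and 12.9 FPKM in 2DC, 7.28, 9.64 and 9.68 FPKM in 2DC_L, and 2.41, 3.24 and 5.04 FPKM in 2DF. The mean thus fell in the order 2DC (10.1 ± 3.57 FPKM, SD, n = 3), 2DC_L (8.86 ± 1.38), 2DF (3.56 ± 1.34), 3DF (3.24 ± 0.309) and 3DF_50 (0.745 ± 0.0793). In this order 2DC and 2DC_L overlapped, as did 2DF and 3DF, whereas the coated dishes lay above every fibrillar matrix. The lower density was therefore set apart from all other conditions, and the higher density lay at the level of cells on top of the matrix.

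ASTN1, at chr13:3925036-4261575 on the minus strand, had its highest values in 3DF, with 5.50, 4.96 and 4.82 FPKM. The 3DF_50 libraries had 1.63, 0.591 and 1.59 FPKM, with replicate 2 below the other two. Every 2D library lay below 3DF, with 2.37, 2.99 and 2.03 FPKM in 2DC, 2.01, 2.39 and 2.95 FPKM in 2DC_L, and 0.891, 1.88 and 1.83 FPKM in 2DF. Mean levels were 5.10 ± 0.361 FPKM in 3DF, 2.46 ± 0.484 in 2DC, 2.45 ± 0.473 in 2DC_L, 1.53 ± 0.555 in 2DF and 1.27 ± 0.588 in 3DF_50 (SD, n = 3 each). The coated dishes overlapped each other, 2DF overlapped 3DF_50, and 3DF stood above every other library. In contrast to NEGR1, it was the higher density that was set apart.

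RAB26 lies on an unplaced scaffold of oryCun2 (chrUn0914:808-4126, minus strand). The 3DF libraries held 0.270, 0.449 and 0.461 FPKM, from counts of 8, 12 and 11, and the 3DF_50 libraries 2.11, 1.69 and 2.11 FPKM, from counts of 44, 37 and 49. The coated dishes were close together, at 1.12, 1.23 and 1.22 FPKM in 2DC and 1.32, 1.23 and 1.28 FPKM in 2DC_L. The 2DF libraries were spread over a 7.58-fold range, at 2.95, 4.79 and 0.633 FPKM. By mean the order was 2DF (2.79 ± 2.09 FPKM), 3DF_50 (1.97 ± 0.243), 2DC_L (1.28 ± 0.0450), 2DC (1.19 ± 0.0601) and 3DF (0.393 ± 0.107; SD, n = 3 each). 2DF overlapped 3DF_50 and the coated dishes overlapped each other, so that 3DF lay below every other library.

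UNC13D was annotated on the scaffold chrUn0147 at 6-2230 on the plus strand, a short model with 1033 exonic bases that begins 6 bases into the scaffold. The 3DF libraries had 0.463, 0.727 and 1.10 FPKM (counts of 12, 17 and 23) and the 3DF_50 libraries 3.18, 4.38 and 2.31 FPKM (counts of 58, 84 and 47). The levels were 1.38, 1.10 and 1.84 FPKM in 2DC, 1.98, 1.92 and 1.23 FPKM in 2DC_L, and 3.37, 1.26 and 0.723 FPKM in 2DF. Every neighbouring pair in the order 3DF_50 (3.29 ± 1.04 FPKM), 2DF (1.78 ± 1.40), 2DC_L (1.71 ± 0.417), 2DC (1.44 ± 0.372) and 3DF (0.764 ± 0.321; SD, n = 3 each) overlapped. It was therefore the member with the least clear order of conditions, although the 3D densities themselves did not overlap.

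ISG20 was on the scaffold chrUn1157 at 3969-10853, plus strand. The 3DF libraries had 0.544, 0.312 and 0.373 FPKM (counts of 29, 15 and 16) and the 3DF_50 libraries 1.63, 1.90 and 1.84 FPKM (counts of 61, 75 and 77). On coated dishes it was close to undetected. Counts there were 12, 3 and 6 in 2DC (0.192, 0.0642 and 0.128 FPKM) and 1, 8 and 1 in 2DC_L (0.0163, 0.133 and 0.0284 FPKM). On top of the matrix it reached 2.37, 1.25 and 0.325 FPKM, so the 2DF libraries ranged from the 3DF level to above the 3DF_50 level. The means were 1.79 ± 0.145 FPKM in 3DF_50, 1.31 ± 1.02 in 2DF, 0.410 ± 0.121 in 3DF, 0.128 ± 0.0641 in 2DC and 0.0594 ± 0.0644 in 2DC_L (SD, n = 3 each). Only the step from 3DF to 2DC in this order was free of overlap between neighbours, and every fibrillar library lay above every coated one.

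**Figure D1:**
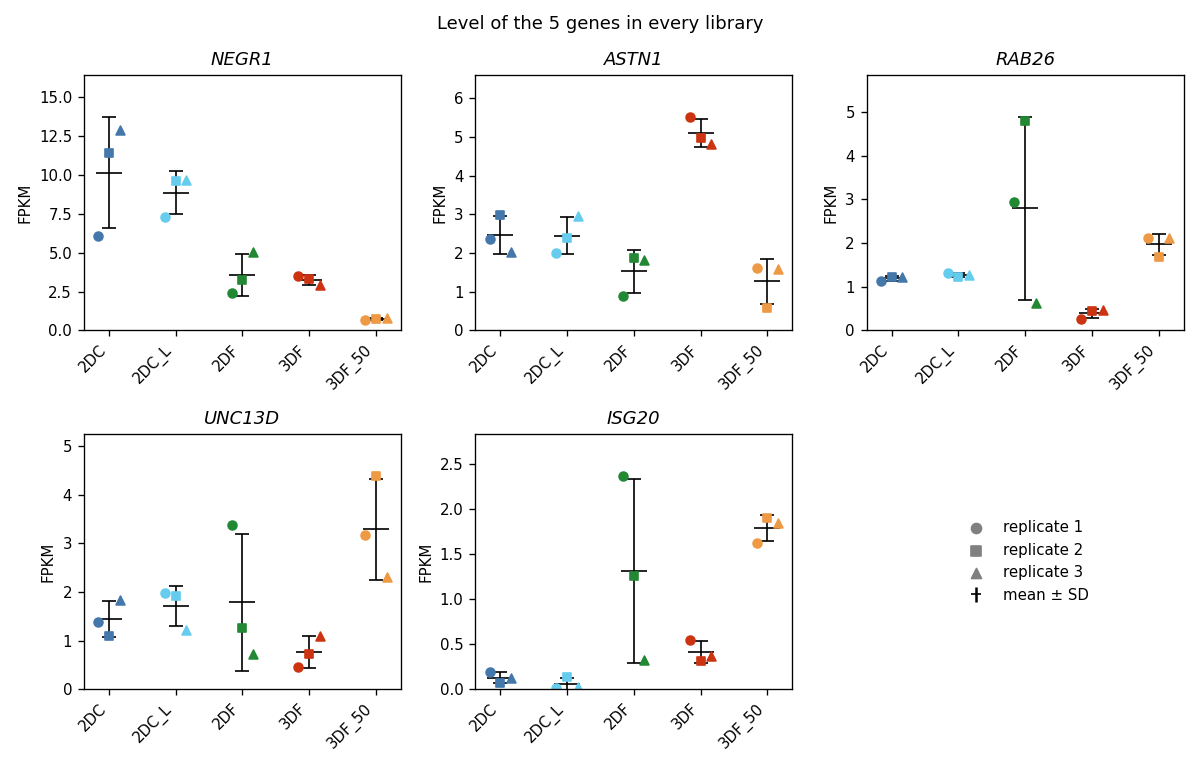
FPKM of the 5 genes in every library (points, marker shape by replicate) by culture condition, with the mean (bar) and SD (whiskers) of 3 libraries. The 3DF and 3DF_50 points do not overlap for any of the 5 genes, which were chosen for this difference, and the 2DF points of RAB26, UNC13D and ISG20 are widely spread.

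The genes that were lower at the higher density thus shared a wide spread in 2DF, with a ratio of the highest to the lowest library of 7.58 for RAB26, 7.29 for ISG20 and 4.66 for UNC13D. For all 3 of them 2DF replicate 3 was the lowest library, and the same library was the highest of 2DF for NEGR1 (5.04 FPKM). The ratio was 2.09 for NEGR1 and 2.11 for ASTN1. The wide spread was not particular to the chosen genes. It was 3.97 for BEST1 and 4.40 for NECAB2, genes described below, with 2DF replicate 3 again the lowest. Across the 15 libraries, Pearson's r of log2(FPKM + 1) was 0.60 between RAB26 and UNC13D, 0.60 between RAB26 and ISG20 and 0.63 between UNC13D and ISG20. The values for NEGR1 with ISG20 (r = -0.87) and ASTN1 with UNC13D (r = -0.84) were further from 0 than that for NEGR1 with ASTN1 (r = 0.35). These values are descriptions, as the libraries include those that chose the genes.

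In the comparison that chose the genes, the log2 fold change of 3DF over 3DF_50 was 2.09 (SE 0.21) for NEGR1 and 1.98 (SE 0.31) for ASTN1, or 4.25-fold and 3.94-fold. It was -2.35 (SE 0.35) for RAB26, -2.14 (SE 0.39) for UNC13D and -2.14 (SE 0.30) for ISG20, corresponding to levels 5.09-fold, 4.42-fold and 4.40-fold lower in 3DF. Differentially expressed genes (DEGs) had to reach an adjusted p of 0.05 in edgeR's quasi-likelihood F test (Benjamini–Hochberg method) and a log2 fold change of 1 or more in either direction. Of 13285 genes tested between the densities, 60 were DEGs (0.452%), 42 higher in 3DF (0.316%) and 18 lower (0.135%). The 5 genes are among them by their choice, and nothing is read from that count. Just outside the selection, the next gene higher in 3DF was PLXNC1, a semaphorin receptor, at 1.90, followed by PRSS23, a serine protease, at 1.67 and ADAMTSL1, a secreted matrix glycoprotein, at 1.59. On the lower side ISG20 was followed closely by BEST1, a calcium-activated chloride channel, at -2.14, and then by GSTO1, a glutathione transferase, at -1.10 and FLOT1, a membrane raft scaffold protein, at -1.05. BEST1 and GSTO1 were thus apart by -1.04 on the log2 scale, whereas the genes higher in 3DF followed ASTN1 without such a gap.

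Set against the coated dishes, the 3D densities moved the 5 genes in different ways. NEGR1 was lower than in 2DC at both densities, with a log2 fold change of -1.65 (SE 0.27) in 3DF and -3.75 (SE 0.30) in 3DF_50. ASTN1 was on opposite sides of 2DC, at 1.04 (SE 0.16) in 3DF and -0.95 (SE 0.32) in 3DF_50. RAB26 was likewise on opposite sides, at -1.61 (SE 0.33) in 3DF and 0.72 (SE 0.25) in 3DF_50, and UNC13D was at -0.93 (SE 0.39) and 1.19 (SE 0.32). ISG20 was higher than in 2DC at both densities, at 1.61 (SE 0.45) and 3.74 (SE 0.37). Compared with cells on top of the matrix, NEGR1 was at -0.13 (SE 0.26) in 3DF and -2.23 (SE 0.29) in 3DF_50, and ASTN1 at 1.74 (SE 0.25) and -0.25 (SE 0.36). RAB26 was at -2.82 (SE 0.65) in 3DF and -0.48 (SE 0.52) in 3DF_50 against 2DF, UNC13D at -1.23 (SE 0.58) and 0.89 (SE 0.49), and ISG20 at -1.66 (SE 0.60) and 0.46 (SE 0.50). The comparisons share their 2DC and 2DF libraries, and these values are set side by side without a test.

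**Figure D2:**
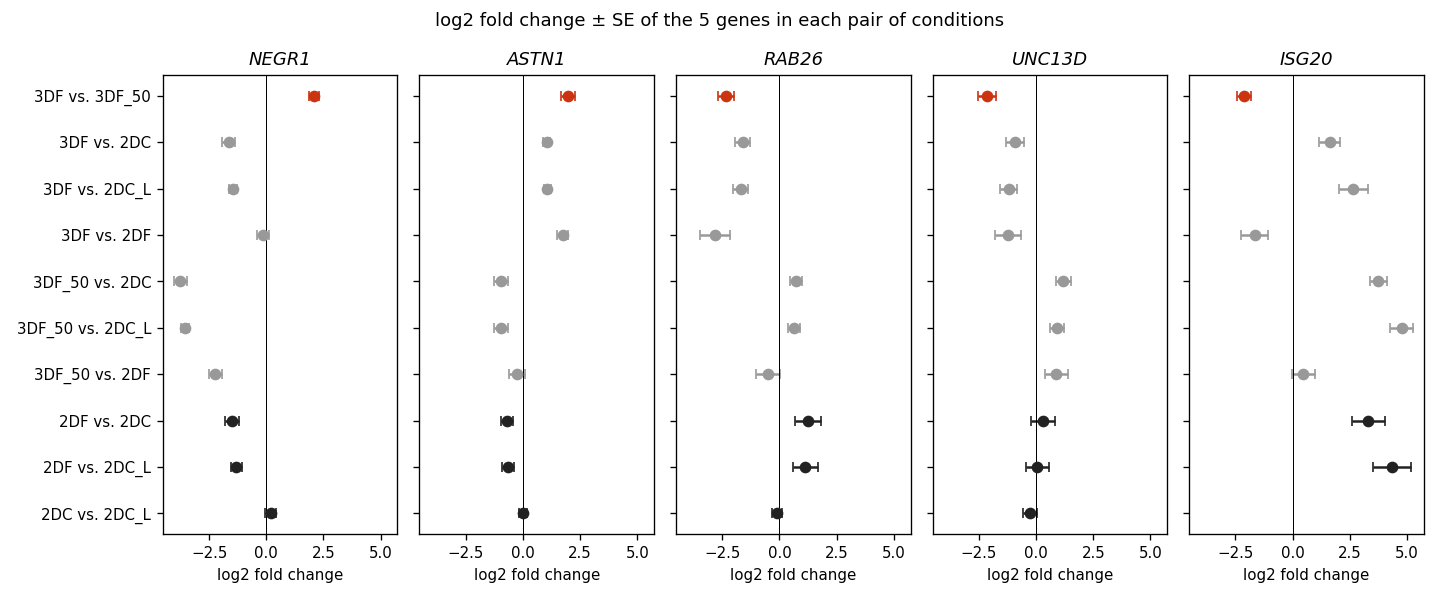
log2 fold change (x axis, first condition over second) with its SE for the 5 genes in each of 10 pairs of conditions. Red marks the pair that chose the genes, gray the other pairs with 3D libraries, which are descriptions, and black the 3 pairs of 2D conditions that were tested. ISG20 has no point in 2DC vs. 2DC_L, where it did not pass the filter on low counts.

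Among the 2D conditions, NEGR1 was a DEG between fibrillar matrices and coated dishes. NEGR1 was lower in 2DF than in 2DC by a log2 fold change of -1.50 (SE 0.32, adjusted p = 0.0155 in edgeR) and lower than in 2DC_L by -1.31 (SE 0.24, adjusted p = 0.00379 in edgeR). ISG20 was higher in 2DF than in 2DC by 3.30 (SE 0.72, adjusted p = 0.0171 in edgeR) and higher than in 2DC_L by 4.33 (SE 0.84, adjusted p = 0.00535 in edgeR), although the size of this change rests on at most 12 counts per coated library. ISG20 passed the filter on low counts only through 2DF, the group in which it was high, so that its passing the test gives no support beyond its values. With no filter it was at 3.29 and 4.33, with adjusted p of 0.00439 and 0.000290 in edgeR. For both genes every 2DF library lay outside the range of the coated libraries. ASTN1 (-0.68, SE 0.26), RAB26 (1.23, SE 0.57) and UNC13D (0.32, SE 0.53) did not pass against 2DC, with adjusted p of 0.118, 0.186 and 0.727 in edgeR. They did not pass against 2DC_L either, with adjusted p of 0.0893, 0.167 and 0.952 in edgeR. Over all genes, DEGs made up 4.96% of the 13258 genes tested in 2DF vs. 2DC and 7.39% of the 13152 in 2DF vs. 2DC_L. These comparisons share the 2DF libraries and are not independent of each other.

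The calls in 2DF vs. 2DC depend on a few libraries, whereas that of NEGR1 against 2DC_L held when any 1 library was left out. ISG20 also passed against 2DC_L in those fits. They used the same filter on low counts, so this gives no support beyond its values. Neither NEGR1 nor ISG20 passed in 2DF vs. 2DC without 2DC replicate 2, 2DF replicate 1 or 2DF replicate 2 (adjusted p from 0.0505 to 0.0782 in edgeR), whereas without 2DF replicate 3 RAB26 passed as well, at 1.70 (adjusted p = 0.0147 in edgeR). Without 2DF replicate 2 RAB26 was at 0.59. Leaving out each library in turn, ISG20 ranged from 2.57 to 3.76 against 2DC and from 3.596 to 5.796 against 2DC_L. In limma on log2(FPKM + 1), which understates changes of low genes, ISG20 was at 0.94 against 2DC and did not pass (adjusted p = 0.0886). No name prefix is shared between 2DF and the coated dishes, so no difference within a prefix could be taken. In a fit of all 5 conditions with the prefix as a block, the estimates were further from 0 (-2.12 for NEGR1 and 4.31 for ISG20 against 2DC). Among the 2DF libraries, only replicate 1 shares its prefix (E5) with another library, which is of 3DF_50. These estimates thus rest on that 2DF library and on 3D libraries that chose the genes, and are a description with no test.

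None of the 4 genes tested differed beyond the threshold between 2DC and 2DC_L, which differ in the digestion step. In this comparison 0 of the 4 genes tested were DEGs in edgeR, in DESeq2 or in limma on log2(FPKM + 1), and 0 had an unadjusted p under 0.05 in edgeR. The log2 fold changes were 0.19 (SE 0.25) for NEGR1, 0.018 (SE 0.18) for ASTN1, -0.098 (SE 0.22) for RAB26 and -0.27 (SE 0.30) for UNC13D. ISG20 was below the filter on low counts. Of all 13608 genes tested, 0.265% were DEGs. The name prefixes E2 and E3 each held a library of both conditions. Within E2 and E3 the CPM of 2DC_L over 2DC was 0.845 and 0.804 for ASTN1 and 1.43 and 1.75 for UNC13D. It was 1.19 and 0.845 for NEGR1 and 1.17 and 1.00 for RAB26. ISG20 had 1 and 8 counts in 2DC_L against 12 and 3 in 2DC. These values are a description with no test.

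Only 1 name prefix, E7, held both 3D densities, as 3DF replicate 2 and 3DF_50 replicate 3. Within it NEGR1 had 183 counts in 3DF and 40 in 3DF_50, a 3.99-fold difference in CPM (95% interval 2.82 to 5.77, exact conditional interval for the counting error alone). ASTN1 had 799 and 223 counts, a 3.13-fold difference (95% interval 2.69 to 3.64). The other 3 genes went the other way. RAB26 had 12 counts in 3DF and 49 in 3DF_50, a 4.68-fold higher CPM in 3DF_50 (95% interval 2.45 to 9.66). UNC13D had 17 and 47 counts, or 3.17-fold (95% interval 1.79 to 5.88), and ISG20 15 and 77 counts, or 5.88-fold (95% interval 3.35 to 11.01). The differences within this prefix were in the direction of the pooled ones for all 5 genes. These libraries entered the choice and the densities did not overlap for any of the 5 genes, so this direction was fixed in advance. The intervals are therefore no test of a difference.

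Over 8 gene lists, 108 other genes were tested in 3DF vs. 3DF_50, of which 68 were relatives or partners of the 5 genes, or genes of the same process, and the rest targets of crowding, Notch and hypoxia. Of the 108, 1 was a DEG (0.926%, beside 0.452% of all genes), and nothing is read from a count of 1. By an unadjusted p under 0.05, to which the lists are also set, 2660 of the 13285 genes tested (20.02%) differed. The DEG was LSAMP, the IgLON relative of NEGR1. DESeq2 gave 3 list genes, LSAMP, DAB1 and SYTL1, and limma on log2(FPKM + 1) gave 0. LSAMP had 28.9, 22.5 and 23.8 FPKM in 3DF and 10.3, 6.27 and 9.95 FPKM in 3DF_50, with a log2 fold change of 1.48 (SE 0.19, adjusted p = 0.0318 in edgeR). It was also lower in 2DF than in 2DC (13.2 against 33.4 FPKM on average, log2 fold change -1.33, adjusted p = 0.0120 in edgeR), as NEGR1 was. Unlike NEGR1, LSAMP in 3DF (25.03 ± 3.39 FPKM) overlapped the coated dishes (33.4 ± 8.93 FPKM in 2DC and 32.8 ± 4.87 FPKM in 2DC_L), although its mean was lower. LSAMP passed in 3 of the 6 fits that left out 1 3D library. It was lost without 3DF replicate 3, 3DF_50 replicate 1 or 3DF_50 replicate 2, and without either of these 3DF_50 libraries 0 of all genes passed in edgeR, with 1847 and 1491 genes at an unadjusted p under 0.05. The remaining IgLON genes NTM, OPCML and IGLON5 had at most 9 counts in any library and were not tested.

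ASTN2, the paralog of ASTN1, was at 0.759 FPKM in 3DF and 0.512 FPKM in 3DF_50 on average, and the densities overlapped (log2 fold change 0.54, adjusted p = 0.294 in edgeR). Of 10 other genes for neuronal migration, 0 passed in edgeR and 3 had an unadjusted p under 0.05 (20.02% of all genes did), while 6 had positive and 4 negative log2 fold changes, and the median was 0.074 beside 0.013 for all genes. DAB1, the adaptor of reelin signalling, had the highest value of the list (2.39, SE 0.51) at 0.278 against 0.0510 FPKM and an adjusted p of 0.0755 in edgeR, and is named after its values were seen.

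The exocytosis list holds RAB26 and UNC13D, which were chosen for this difference and are left out of its counts. Of 20 others tested, 0 passed in edgeR and 4 had an unadjusted p under 0.05, a share close to that of all genes (20.02%). The median log2 fold change was 0.18, with 13 above and 7 below 0. RAB27A, the small GTPase that UNC13D binds, was at 1.69 FPKM in 3DF and 1.26 FPKM in 3DF_50 (0.40, adjusted p = 0.491 in edgeR). UNC13B, a paralog of UNC13D, was at 3.27 and 2.78 FPKM (0.20, adjusted p = 0.471 in edgeR). RAB37, the paralog of RAB26, had at most 4 counts in any library, and STX11 and STXBP2, partners of UNC13D in the release of lytic granules, at most 8 and 20. SYTL1, an effector of Rab27, had the lowest value among the others (-1.45, adjusted p = 0.0923 in edgeR) and was a DEG in DESeq2 only, as is given here after its values were seen.

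Of 28 other interferon-stimulated genes tested, 0 passed in edgeR and 8 had an unadjusted p under 0.05, beside 20.02% of all genes. Their median log2 fold change was 0.28, with 18 above and 10 below 0. ISG20 was at -2.14, but it was chosen for its low value, so nothing is read from this contrast. The exonuclease list, related to ISG20 by activity, had a median of -0.018 over 9 other genes, of which 0 passed in edgeR and 3 had an unadjusted p under 0.05. AEN, a nuclease of the same family whose gene lies on the same scaffold and strand just before ISG20 (904-2208), came closest. AEN had 26.5, 35.2 and 28.1 FPKM in 3DF and 53.8, 59.0 and 49.5 FPKM in 3DF_50, with no overlap, and its log2 fold change of -0.88 (SE 0.15) had an adjusted p of 0.0403 in edgeR but missed the limit on the fold. It was also higher in 2DF than in 2DC (0.75, adjusted p = 0.0444 in edgeR), again under the limit on the fold. ISG20L2, a further relative, was at -0.32 (adjusted p = 0.224 in edgeR).

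The lists for crowding, Notch signalling and hypoxia gave no DEG in edgeR or DESeq2, and their counts at an unadjusted p under 0.05 stand beside 20.02% of all genes. Of 17 targets of YAP and TEAD, which respond to crowding and to tension in the cytoskeleton, 0 passed in edgeR and 7 had an unadjusted p under 0.05, with a median of 0.14. TGFB2 (0.87, SE 0.14, adjusted p = 0.0369 in edgeR) missed only the limit on the fold. Of 5 Notch genes 0 passed in edgeR and 1 had an unadjusted p under 0.05, with a median of -0.0036. Of 18 hypoxia targets 0 passed in edgeR and 5 had an unadjusted p under 0.05, with a median of 0.025.

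**Figure D3:**
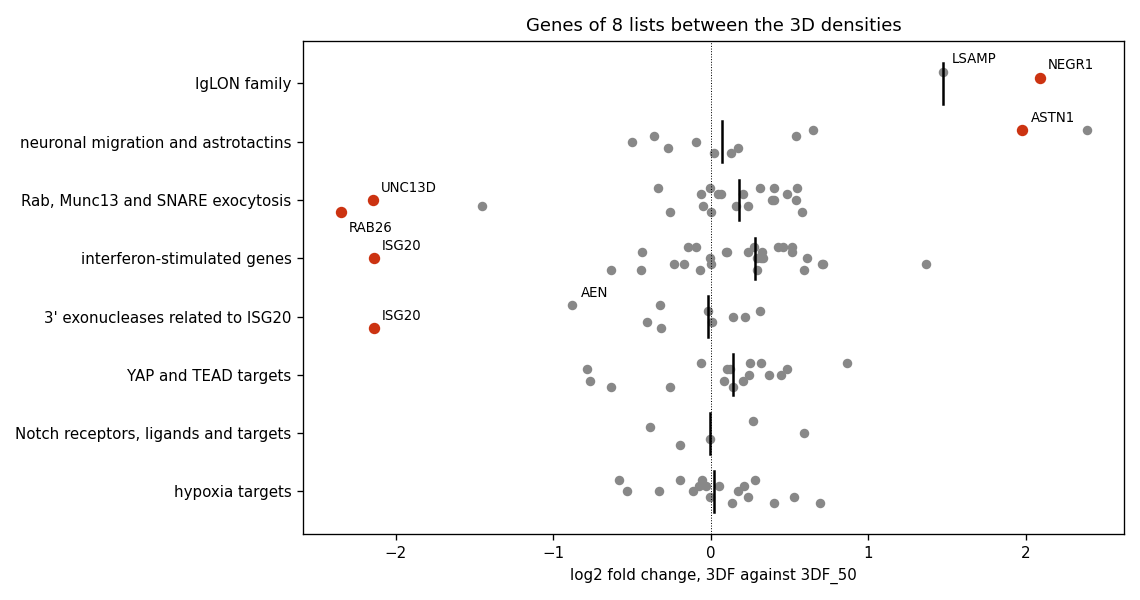
log2 fold change of 3DF over 3DF_50 (x axis) for every tested gene of 8 lists, with the chosen genes in red, other genes in gray and the median of the other genes as a black line. LSAMP, at 1.48, is the only gray point that passed the test, and the other exocytosis and interferon genes have medians of 0.18 and 0.28.

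The genes that were lower at the higher density, RAB26, UNC13D and ISG20, lie on different scaffolds that oryCun2 does not assign to a chromosome. NEGR1 and ASTN1 lie on chromosome 13. Place was not a rule of the choice, yet it is not independent of the choice where low values are more common on such scaffolds. Of the genes tested between densities, 28.3% lie on unplaced scaffolds. Among the DEGs, 10 of the 18 lower in 3DF and 4 of the 42 higher in 3DF did so, counts that include the chosen genes. The median log2 fold change was -0.11 over 3764 genes on unplaced scaffolds and 0.063 over 9521 genes on chromosomes, a gap of -0.17. The gap was -0.15 in 3DF vs. 2DF, -0.14 in 3DF vs. 2DC_L and -0.087 in 3DF vs. 2DC, and between 0.018 and 0.091 when 3DF_50 was set against the same 3 conditions. In 2DF vs. 2DC it was 0.073. These pairs share libraries. The share of counts that fell on unplaced scaffolds was 21.3, 25.8 and 25.5% in 3DF and 27.7, 28.9 and 28.2% in 3DF_50, with no overlap. It was 26.6, 26.1 and 23.3% in 2DF, where replicate 3 was again the lowest, and 21.0 to 23.4% on coated dishes. Whether this shift has a part in the values of RAB26, UNC13D and ISG20 was not tested.

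Genes beside the members on these scaffolds are given for their levels. UNK, an RNA-binding protein gene next to UNC13D, had 14.0, 16.3 and 14.99 FPKM in 3DF and 19.0, 22.9 and 20.2 FPKM in 3DF_50 (log2 fold change -0.48, adjusted p = 0.103 in edgeR). PKD1, the polycystin gene on the scaffold of RAB26, had 27.4, 35.2 and 35.3 FPKM and 39.0, 45.6 and 42.5 FPKM (-0.40, adjusted p = 0.170 in edgeR). UNK and PKD1 were picked after their values were seen, and since the members were chosen for the lowest values, a value nearer to 0 in a neighbour follows from the choice. LOC108176223, a short gene model nearest to RAB26, had at most 3 counts in any 3D library and was not tested. Whether reads were counted by strand is not given in the sources used here.

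**Figure D4:**
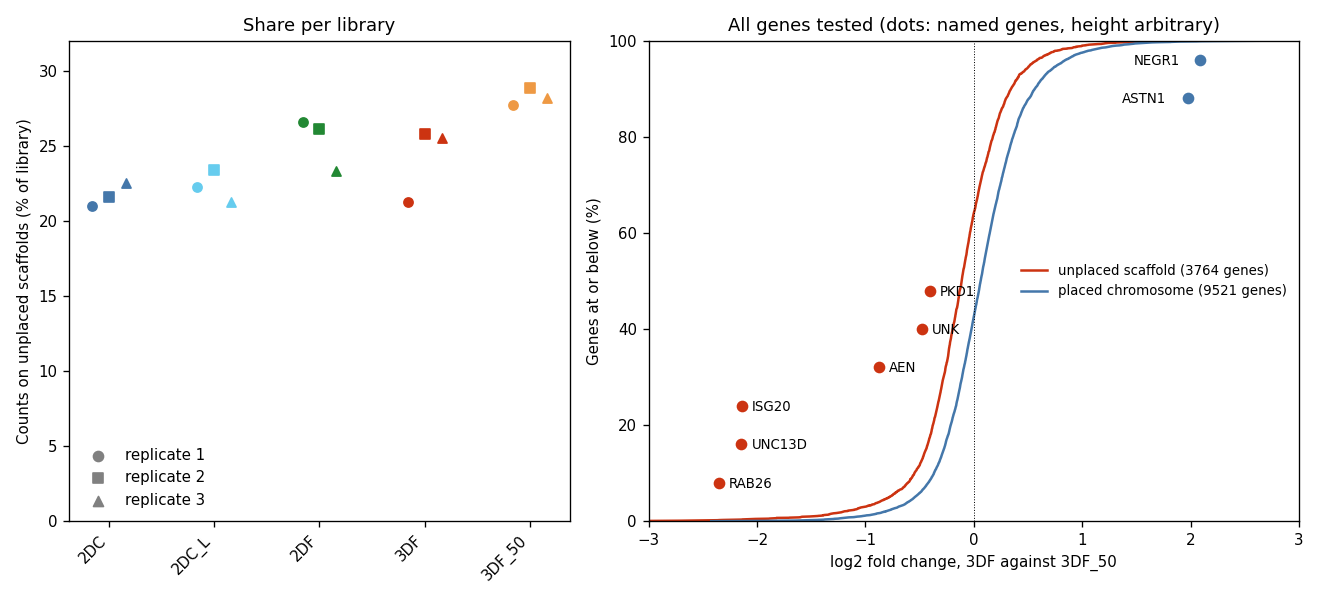
Left, percent of each library's counts on unplaced scaffolds, by condition and replicate. Right, cumulative percent of genes by log2 fold change of 3DF over 3DF_50 on unplaced scaffolds (red) and chromosomes (blue), with named genes as dots at arbitrary height. The red curve lies to the left of the blue one, with medians of -0.11 and 0.063, and RAB26, UNC13D and ISG20 lie to the left of both, as they were chosen to.

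**Figure D5:**
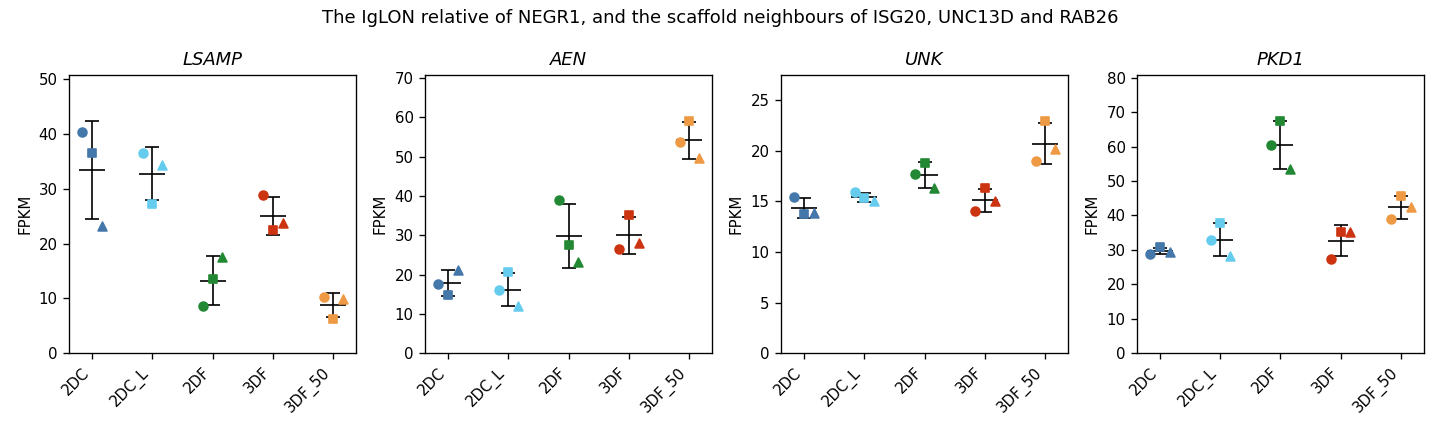
FPKM in every library (points, marker shape by replicate) with mean and SD of LSAMP, a relative of NEGR1, and of AEN, UNK and PKD1, which lie on the scaffolds of ISG20, UNC13D and RAB26. LSAMP is at 22.5 to 28.9 FPKM in 3DF and 6.27 to 10.3 FPKM in 3DF_50, while AEN is higher in 3DF_50.

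Across all 15 libraries, the genes most like NEGR1 among 9688 with a symbol and a mean of at least 1 FPKM were CELF2, an RNA-binding splicing regulator (Pearson's r of log2(FPKM + 1) = 0.97), ARHGAP29 (r = 0.96) and PARVA (r = 0.96). CELF2 was at 2.86 FPKM in 3DF and 1.56 FPKM in 3DF_50 (log2 fold change 0.84, SE 0.20, adjusted p = 0.0884 in edgeR). Those most like ASTN1 were PPFIA2, a liprin of the presynaptic scaffold (r = 0.95), BACE1 (r = 0.93) and AHCYL2 (r = 0.92). RAB26 was most like SAP30BP (r = 0.90), FAM166B (r = 0.88) and KMT2D (r = 0.83), and UNC13D most like TUBGCP2 (r = 0.93), MRPS14 (r = 0.92) and DIABLO (r = 0.91). SAP30BP lies on the scaffold of UNC13D. ISG20 was most like ATP6V1D, a subunit of the vacuolar proton pump (r = 0.96), PSENEN (r = 0.94) and NECAB2 (r = 0.93). None of these most like genes was a DEG between densities. SAP30BP, TUBGCP2 and ATP6V1D had log2 fold changes of -0.41, -0.35 and -0.30. These are smaller changes than those of the members, which were chosen for theirs. The points share conditions and the libraries that chose the genes, and by Spearman's rho at most 1 of the 3 names per gene was among the first 3, so the names depend on the measure.

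Markers of other cells were set beside the 5 genes. The corneal epithelial markers, 12 of 13 in the tables, summed to 8.93, 13.8 and 10.2 FPKM in 3DF and to 0.701, 0.437 and 7.18 FPKM in 3DF_50, and KRT12 had 114 to 183 counts in 3DF and 0, 0 and 77 in 3DF_50. In this sum and in KRT12, 3DF_50 replicate 3 thus lay between the other 3DF_50 libraries and the 3DF libraries. Its levels of NEGR1 (0.825 FPKM), RAB26 (2.11 FPKM) and ISG20 (1.84 FPKM) were close to those of the other 3DF_50 libraries. Its UNC13D level (2.31 FPKM) was the lowest of 3DF_50, and its ASTN1 level was 1.59 FPKM. The 5 genes were chosen for a difference without overlap between densities, so these levels had to lie on the 3DF_50 side. Nothing is read from them. The immune markers, 12 of 14 in the tables, summed to 5.14 to 6.24 FPKM in 3DF and 4.68 to 6.26 FPKM in 3DF_50. PTPRC, the common leukocyte antigen, had at most 7 counts in any 3D library, and MS4A1 was at 0 in all of them. The neural markers, 10 of 12 in the tables, summed to 8.69 to 10.4 FPKM in 3DF and 6.43 to 7.69 FPKM in 3DF_50, and SNAP25 was at 0 in both. The vascular endothelial markers, 6 of 7 in the tables, summed to 112 to 116 FPKM in 3DF and 46.8 to 72.6 FPKM in 3DF_50, with CLDN5 at 0 in 3DF and PECAM1 at 0 in 3DF_50. Nearly all of this sum was KDR (114 FPKM in 3DF and 61.1 FPKM in 3DF_50 on average), whereas VWF (0.139 and 0.112 FPKM) and ROBO4 (0.418 and 0.234 FPKM) were close to 0. The corneal endothelial markers, 3 of 3 in the tables, summed to 127 to 191 FPKM in 3DF and 86.6 to 101 FPKM in 3DF_50. This sum was mostly COL8A2 (122.8 and 74.7 FPKM) and TFAP2B (33.7 and 20.2 FPKM), and SLC4A11 (0.471 and 0.781 FPKM) had the opposite sign. The epithelial, neural and both endothelial sums were higher in 3DF, although single markers such as SLC4A11 and, in the neural list, GFAP (log2 fold change -0.25) were not, and their part in the values of the 5 genes was not tested. In bulk RNA, fewer cells that express a gene and less RNA per cell cannot be told apart.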

How the data were processed

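Bulk RNA-seq of 15 libraries was analysed, 3 for each of 5 conditions read from the sample titles. The authors' deposited counts are reads per gene, aligned to oryCun2 with HISAT2 and counted with featureCounts, not normalized. The authors' deposited FPKM values are those counts scaled by gene length and library size. Levels are FPKM, and differences were computed from the counts. Each pair of conditions was fitted across all genes by the quasi-likelihood F test of edgeR 4.0.16 (R 4.3.3). The test was two-sided, used TMM and edgeR's filterByExpr at 10 counts, held the libraries of that pair alone, and was adjusted by Benjamini–Hochberg over all genes tested. The study used DESeq2, which here (version 1.42.0) is an alternative, as is limma 3.58.1 on log2(FPKM + 1) or log2(FPKM + 0.1). The fit was also run on simulated counts with known changes. These were drawn without name prefixes or a deviating library, so the run does not bear on those features of the data. The SE was taken as |log2 fold change| over the root of the F statistic. CPM are counts scaled by TMM library sizes. Python 3.11.15 made the tables and figures.

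The members and lists were chosen with earlier results of these data known. The genes named are the 5 members, the next 3 DEGs in each direction of the ranking between densities (named genes whose densities do not overlap and average 1 FPKM or more), the 3 genes most like each member, list genes that were DEGs and fixed relatives and partners. UNK, PKD1, DAB1, SYTL1, TGFB2 and SAP30BP's place were added after values were seen. Replicate numbers were not taken to pair the samples, as same-numbered libraries did not all correlate over 0.1 in their deviations. The exception was 3DF_50 vs. 2DC_L (0.17, 0.11 and 0.30), in which no member was tested. The depth of 14626982 to 31804255 counts limits genes such as ISG20 on coated dishes, and intervals of counts cover counting error only. Promoter sequences and motifs were not analysed here.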

Additional observations from a re-analysis of the deposited data

How the results depend on the processing

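With a replicate block the number of genes past the threshold, ISG20 included, stayed at 2 in 2DF vs. 2DC, beside 628 of 13258 over all genes. It stayed at 2 in 2DF vs. 2DC_L (902 of 13152 over all genes) and 0 in 2DC vs. 2DC_L (37 of 13608). In 3DF vs. 3DF_50 1 list gene passed (86 of 13285 over all genes). Same-numbered libraries were correlated by -0.13 to 0.38 in these pairs, and not all over 0.1 in any of them. With the prefix block 0 list genes passed in 3DF vs. 3DF_50. In 2DF vs. 2DC and 2DF vs. 2DC_L that fit rests on 1 2DF library and on 3D libraries, so no count is given. In limma on log2(FPKM + 1), which shrinks low levels, 1 gene passed in 2DF vs. 2DC, beside 302 of all 14782 genes. In 3DF vs. 3DF_50 0 list genes passed, beside 6 of all 14752 genes. List genes numbered 3 in DESeq2 (DAB1, LSAMP and SYTL1), 3 by adjusted p alone (AEN, LSAMP and TGFB2), 2 with library size only, 2 with no filter and 2 with all 5 conditions in the fit. All DEGs between densities numbered 60 in the reported fit, 197 in DESeq2, 155 with no filter, 196 with all 5 conditions, 10 with the prefix block and 6 in limma on log2(FPKM + 1). With library size only, 24 were higher and 29 lower, against 42 and 18, and the median of all genes moved to -0.15.

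Leaving out each library in turn gave 0 to 3 of the 5 genes in 2DF vs. 2DC, ISG20 included. DEGs over all genes then numbered 410 to 670 of 13337 to 13752 tested. In 2DF vs. 2DC_L it gave 2 to 3 of the 5 genes, ISG20 included, beside 801 to 1043 of 13393 to 13494. In 2DC vs. 2DC_L it gave 0, beside 28 to 38 of 13670 to 13996. Between densities 0 to 2 list genes passed, beside 0 to 77 of 13471 to 13673 genes. UNC13D, past no threshold, changed sign in 2DF vs. 2DC_L, at -0.10 with the replicate block, -0.062 in limma on log2(FPKM + 1) and -0.17 on log2(FPKM + 0.1). Without 1 library it ranged from -0.79 to 0.42 there and from -0.53 to 0.69 in 2DF vs. 2DC. In 2DC vs. 2DC_L the range was -0.020 to 0.46 for NEGR1 and -0.14 to 0.16 for ASTN1. The differences between densities kept their sign in every alternative. The 5 genes were chosen for this difference and their densities do not overlap, so this gives no support beyond the choice. Without 1 library these differences ranged from 2.01 to 2.16 for NEGR1, 1.63 to 2.19 for ASTN1, -2.47 to -2.13 for RAB26, -2.49 to -1.87 for UNC13D and -2.40 to -1.97 for ISG20. The gap between unplaced scaffolds and chromosomes was -0.19 in DESeq2, -0.19 with no filter and -0.12 in limma on log2(FPKM + 1), ways chosen after the data were seen. Why these values moved was not tested. The promoter motif search could not be run.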
